A study of Mus musculus with 24 samples.

Results

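CD11b+ cells of the bone marrow were compared between HDC-KO mice, which lack histidine decarboxylase, and WT mice. The comparison rests on 8 of the 24 arrays of the series, 4 from HDC-KO and 4 from WT, and covers 17129 tested genes of the 19821 autosomal genes with a probe. RNA of CD11b+ cells from male mice was hybridised to one-colour Agilent mouse arrays, for WT, HDC-KO, and STAT6-KO mice and for bone marrow and spleen. The mice were controls or had a myocardial infarction (MI) 1, 2, or 4 weeks earlier. A single array stood for each combination, and per the labels its cells came from a pool of 5 mice, so no array was repeated and the mice of a pool cannot be told apart. The methods of the study describe male mice of the Balb/C background, 10 weeks old. The labels name no drug for these mice. HDC-KO is a knockout of the whole mouse and not of the myeloid cells alone. The arrays were paired by time point (control, MI 1 week, MI 2 weeks, and MI 4 weeks), and p-values measure the spread between these pools around the time point and genotype terms, to which the 3 full STAT6-KO bone marrow arrays add.

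Histidine decarboxylase is the enzyme that makes histamine from histidine. In the bone marrow it is expressed in basophils, mast cells, and immature myeloid cells that carry CD11b, the integrin alpha chain encoded by Itgam. Histamine signals through G protein-coupled receptors and is known for its part in allergy, gastric acid secretion, and the maturation of myeloid cells. CD11b is carried by neutrophils, monocytes, and their precursors, and by part of the eosinophils and natural killer cells.

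Values are log2 signals minus the 75th percentile of the array, so 1 unit is a doubling and negative values lie below that percentile. A level says nothing about another gene, since probes differ in brightness. The 75th percentile lay between 963 and 1780 in the WT arrays and between 1125 and 1514 in the HDC-KO arrays, with 71.3 to 79.0% and 76.1 to 79.7% of spots well above background and 0 saturated spots. Itgam read 5.10, 5.68, 5.29, and 5.60 in the WT control, MI 1 week, MI 2 weeks, and MI 4 weeks arrays and 5.22, 5.77, 5.54, and 5.60 in the HDC-KO arrays in the same order. All 5 integrin genes of the list were well above background on all 8 arrays, but so were all 10 genes of the T cell list. Detection therefore cannot check the label CD11b+, and the series holds no unsorted cells to compare with. Sex-linked genes went against the shared label of male mice. Xist, the RNA that coats the inactive X chromosome of female cells, read -5.42, -5.87, -5.77, and -5.48 in WT and -2.07, -2.84, -2.78, and -2.58 in HDC-KO, a difference of 3.07 (adjusted p = 0.0112). A further probe of Xist was well above background on 0 of 4 WT and 4 of 4 HDC-KO arrays. The Y-linked genes Ddx3y and Uty fell by 1.21 and 1.26 on the log2 scale (adjusted p = 0.0351 and 0.0293). The sex of the pooled mice and the genotype cannot be told apart here, and the counts over all genes below are of autosomal genes. The gene lists also hold 7 tested genes of the X chromosome. The 4 arrays of a genotype and tissue also shared 1 slide, so slide and genotype cannot be told apart either. The WT array of MI 1 week stood apart from the other WT arrays in several marker lists. Summed over a list as linear signal relative to the 75th percentile, its B cell genes came to 2.21 against 23.5 to 28.6 in the other WT arrays, and its interferon-induced genes to 567 against 121 to 276. List medians that moved by over 1.5 times without that pair are given without it as well, for lists whose median lay beyond 0.25 in size.

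The targeted gene was checked first. Hdc read 5.11, 5.51, 4.75, and 5.11 in the WT arrays (control, then 1, 2, and 4 weeks after MI) and 2.51, 2.32, 2.78, and 2.36 in the HDC-KO arrays. The highest HDC-KO array lay far below the lowest WT array, although the probe remained well above background on all 4 HDC-KO arrays. The mean difference over 4 pairs was -2.63 ± 0.19 (SE), a 6.18-fold lower signal (limma, adjusted p = 0.00401). The SD of the pair differences was 0.51, and the exact two-sided sign-flip permutation test gave p = 0.125, the smallest that 4 pairs allow. In a fit on the 8 arrays alone the adjusted p was 0.0555, and it was 0.0748 without the MI 2 weeks arrays and 0.141 without the MI 4 weeks arrays. The other genes of histamine handling, which encode receptors, the degrading enzymes, and transporters, gave no call. Of the 9 genes of this list 7 were tested, 1 fell (Hdc), and 2 of the 7 differences lay above 0. Per-gene values ran from -2.63 for Hdc to 0.46, with a median of -0.37 against 0.02 over all autosomal genes tested. Without the MI 1 week pair the list median was -0.14, and without the MI 4 weeks pair -0.18.

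Across the autosomal genes, 56 of 17129 passed an adjusted p under 0.05, which is 0.327% of the genes tested. Of these, 30 rose in HDC-KO (0.175%) and 26 fell (0.152%). At an unadjusted p under 0.05 the count was 3478 genes, or 20.3%. All 56 had the same sign in each of the 4 pairs, as did 33.3% of all genes tested, and in 44 of the 56 the WT and HDC-KO arrays did not overlap, as in 7.36% of all genes tested. The largest differences were those of the Oas1 genes, of Musk, and of Perp upward and of Gm10421, Rbbp9, and Hdc downward among the genes well above background on all arrays of the higher genotype. The count depended on the arrays: it was 219 without the control arrays, 19 without the MI 1 week arrays, 2 without the MI 2 weeks arrays, and 3 without the MI 4 weeks arrays, and 15 when the 8 arrays of WT and HDC-KO were fitted without those of STAT6-KO. Rbbp9 was the only 1 of the 56 past the threshold whichever time point was left out, and 24 of the 56 were not past it whichever was left out, among them Perp, Gm10421, Gp9, Gp1ba, Cd8a, Prnp, Crnkl1, and Id1.

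**Figure D1:**
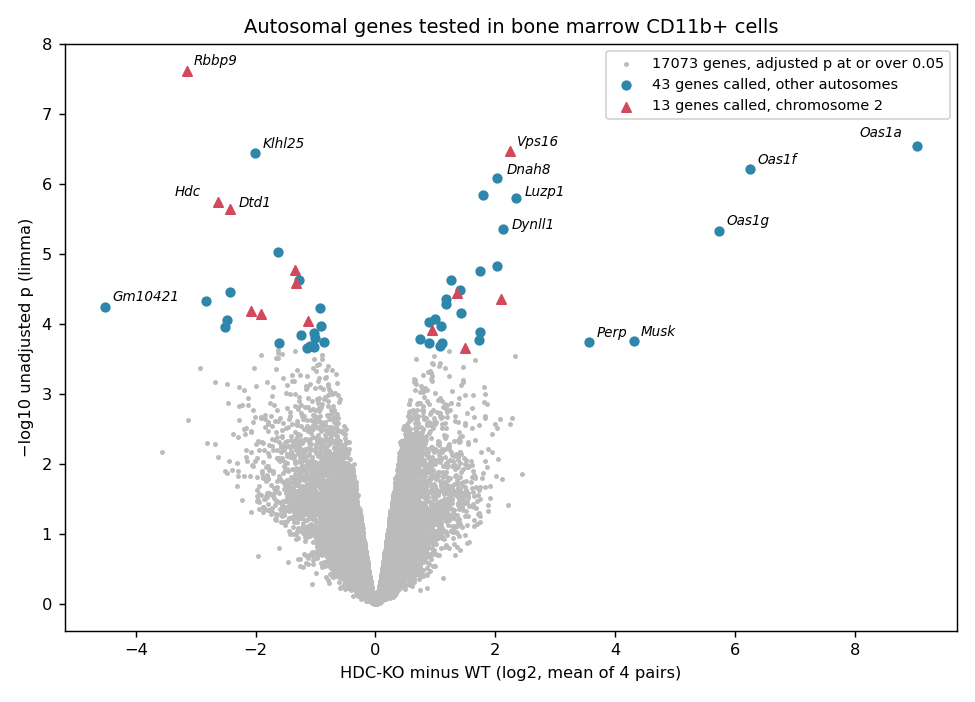
Mean difference of HDC-KO minus WT (x axis, log2) against the -log10 unadjusted p of the limma fit (y axis) for each of the 17129 autosomal genes tested. Grey points are genes not past the threshold, blue circles the 43 called genes on other autosomes, and red triangles the 13 called genes on chromosome 2; Oas1a, Oas1f, and Oas1g lie to the right of all others at 5.74 to 9.04.

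The Oas1 genes gave the largest rise. They encode oligoadenylate synthetases, interferon-induced enzymes that sense double-stranded RNA and switch on RNase L. Oas1a read -6.47, -5.61, -3.61, and -3.39 in the WT arrays (control, then 1, 2, and 4 weeks after MI) and 4.01, 4.28, 3.82, and 4.98 in the HDC-KO arrays. It was well above background on 4 of 4 HDC-KO and 2 of 4 WT arrays, and the genotypes did not overlap. The difference was 9.04 ± 0.51 (limma, adjusted p = 0.00194), and it was 6.47 at the other probe of the gene. Oas1f read -3.94, -2.85, -2.97, and -3.11 in WT and 2.92, 2.80, 2.87, and 3.58 in HDC-KO. Each of its HDC-KO arrays lay above each WT array, with a difference of 6.26 ± 0.39 (adjusted p = 0.00273), a 76.6-fold higher signal. Oas1g read -8.70, -8.08, -9.14, and -8.64 in WT, where no array was well above background, and -3.37, -3.31, -3.04, and -1.89 in HDC-KO. HDC-KO exceeded WT at least 10.8-fold by the bound that the dimmest measured spots of the WT arrays set, with a fitted difference of 5.74 ± 0.48 (adjusted p = 0.00761) and 1.97 at its other probe. Over the alternatives the fitted difference of Oas1g ranged from 1.82 to 6.06. In STAT6-KO bone marrow the differences were 8.62 for Oas1a and 6.24 for Oas1f against the same WT arrays, which both comparisons share. In spleen after MI the mean pair difference was 9.69 for Oas1a and 6.76 for Oas1f.

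The 3 genes lie next to each other on chromosome 5, in the order Oas1f, Oas1g, and Oas1a, with Oas1g 2 tested genes after Oas1f and Oas1a 1 after Oas1g. Their promoters are shown because the genes moved together. The windows run from 120 bases before to 30 bases after the annotated start (RefSeq, GRCm38.p6), read 5′ to 3′ on the strand of the gene, and capitals mark GAAA followed by any 2 bases and GAAA, the core of the interferon response element, searched on both strands (TTTC, any 2 bases, and TTTC on the other strand). The windows are chr5:120907496-120907645, strand - for Oas1a, chr5:120887584-120887733, strand - for Oas1g, and chr5:120847247-120847396, strand + for Oas1f.
Oas1a: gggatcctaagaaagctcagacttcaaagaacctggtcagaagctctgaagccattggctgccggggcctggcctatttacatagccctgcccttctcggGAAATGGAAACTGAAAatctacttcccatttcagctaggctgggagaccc
Oas1g: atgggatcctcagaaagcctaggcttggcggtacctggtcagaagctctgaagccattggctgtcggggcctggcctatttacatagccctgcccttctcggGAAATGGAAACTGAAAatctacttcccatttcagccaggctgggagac
Oas1f: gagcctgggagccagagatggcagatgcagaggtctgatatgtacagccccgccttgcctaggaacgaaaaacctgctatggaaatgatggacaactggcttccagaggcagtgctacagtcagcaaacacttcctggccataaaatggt
Oas1a and Oas1g each held 2 overlapping matches, starting 20 and 14 bases before the start in Oas1a and 18 and 12 bases before it in Oas1g, and Oas1f held 0. The motif was found in 503 of 32851 promoter windows of this length (1.53%). A match is a description of the letters and not a bound site. The longest run of bases that Oas1a and Oas1g share in these windows was 73 bases, and Oas1f shared 7 with each. Oas1a and Oas1g belong to a family of near-identical copies, and binding of their probes to RNA of other copies was not tested.

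No other gene of the interferon-induced list passed the threshold. Of the 16 tested genes of the interferon-induced list, 2 rose (Oas1a and Oas1g), 0 fell, and 13 differences lay below 0, with a median of -0.86. The pair medians were 0.32, -2.65, -1.33, and 0.36 for control, MI 1 week, MI 2 weeks, and MI 4 weeks, so the list stood lower in HDC-KO at 1 and 2 weeks and slightly higher in the other pairs. Without the MI 1 week pair the median was -0.27. Isg15, a ubiquitin-like protein, read 3.14, 6.03, 4.81, and 3.92 in WT and 3.47, 3.33, 3.49, and 4.07 in HDC-KO (difference -0.89, adjusted p = 0.418). Ifit1, which binds foreign RNA, read 1.21, 5.33, 3.63, and 1.32 in WT and 1.68, 1.52, 1.03, and 2.08 in HDC-KO (difference -1.29, adjusted p = 0.452). In both genes the WT arrays of 1 and 2 weeks after MI were high, and the HDC-KO arrays overlapped the other WT arrays. Irf7, a transcription factor of the interferon response, had the same high arrays, with -0.72, 2.32, 1.04, and 0.34 in WT and -1.01, -1.25, -0.95, and 0.07 in HDC-KO. These genes and Oas2 were chosen for display after their values were seen. The guanylate-binding proteins and immunity-related GTPases, defence proteins induced by interferon gamma, had a median of -1.07 over 11 genes, of which 10 lay below 0 and 0 passed the threshold. Their pair medians were 0.77, -2.35, -1.52, and -0.81, and the median without the MI 1 week pair was -0.68. Gbp2 read 1.07, 4.26, 3.39, and 3.21 in WT and 1.93, 1.67, 1.15, and 1.55 in HDC-KO, with the WT control array below all HDC-KO arrays and the WT arrays after MI above all HDC-KO arrays.

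**Figure D2:**
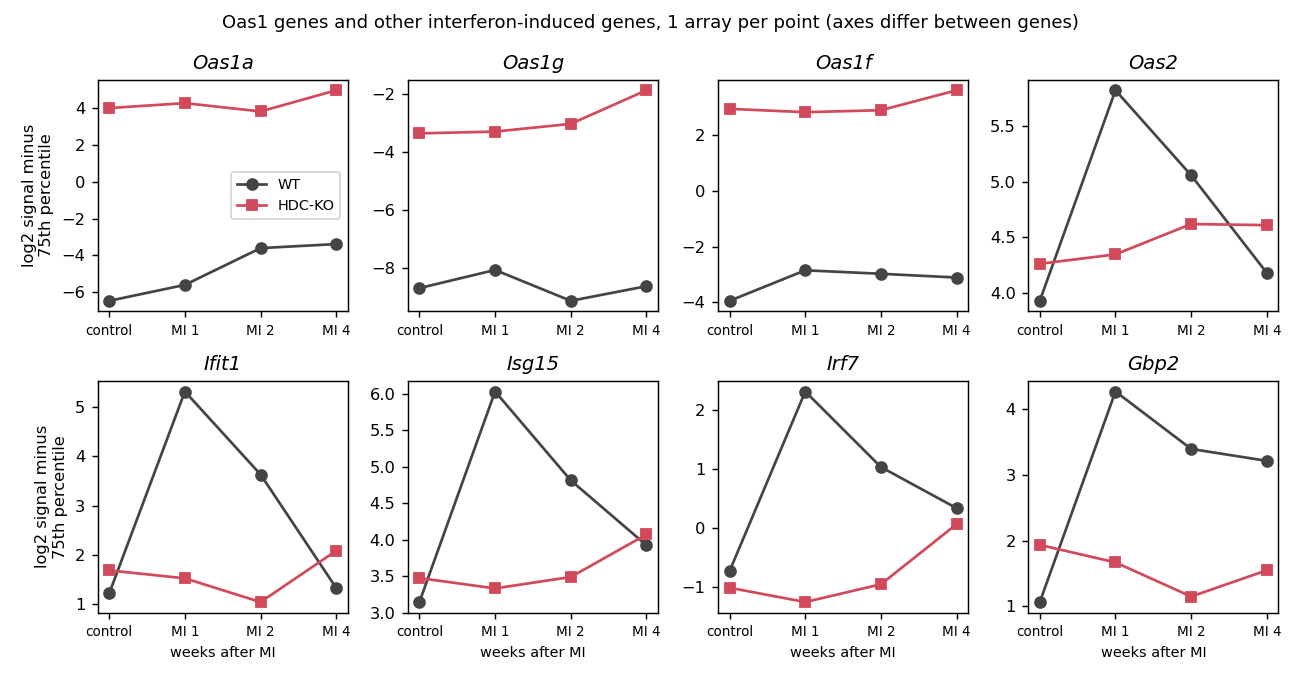
Log2 signal minus the 75th percentile of the array (y axis, scale differs between genes) in the control array and at 1, 2, and 4 weeks after MI (x axis) for WT (black circles) and HDC-KO (red squares), 1 array per point. In Oas1a, Oas1g, and Oas1f the HDC-KO line lies above the WT line throughout, while in Oas2, Ifit1, Isg15, Irf7, and Gbp2 WT is the higher one at 1 and 2 weeks.

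Among the other genes that rose, Perp and Dsp belong to desmosomes, the junctions between epithelial cells, a grouping made after the values were seen. Perp, a desmosomal membrane protein, read -5.48, -4.24, -6.33, and -5.25 in the WT arrays (control, then 1, 2, and 4 weeks after MI) and -2.10, -0.60, -2.35, and -1.98 in the HDC-KO arrays. The lowest HDC-KO array was above the highest WT array, with a difference of 3.56 ± 0.51 (limma, adjusted p = 0.0458). Desmoplakin (Dsp), named after its values were seen, rose by 1.41 (adjusted p = 0.0212), with 0.80 at its other probe, well above background on 2 of 8 arrays. On the 8 arrays alone its adjusted p was 0.106 (limma). With 1 time point left out, Dsp stayed called only without the control arrays. Musk, the receptor kinase of the neuromuscular junction, read -2.80, -3.45, -3.71, and -4.12 in HDC-KO and was not well above background on any WT array. By the bound that the dimmest measured spots set in the scaling used here, HDC-KO exceeded WT at least 7.05-fold. The adjusted p of 0.0458 (limma) is that of the fitted difference of 4.31, which rests on WT values not well above background. That difference ranged from 1.13 to 4.51 over the alternatives. Vps16, a subunit of the complexes that fuse endosomes with lysosomes, read 0.59, 0.37, 0.57, and 0.22 in WT and 2.87, 2.94, 2.56, and 2.37 in HDC-KO. All HDC-KO arrays exceeded all WT arrays, and the difference was 2.25 ± 0.13 (adjusted p = 0.00194). Chac1, which breaks down glutathione, read -0.94, -0.50, -0.93, and -1.41 in WT and 1.38, 0.59, 1.72, and 0.89 in HDC-KO. The genotypes did not overlap, and the smallest of its pair differences was that of MI 1 week (difference 2.09 ± 0.24, adjusted p = 0.0252). Dynein genes rose at 2 loci: Dynll1, a light chain, by 2.13 (adjusted p = 0.00761), and Dnah8, a heavy chain of the cilium, by 2.03 (adjusted p = 0.00314). Dynll1 was well above background on 3 of 4 WT arrays, and its difference ranged from 0.61 to 2.32 over the alternatives. Dnah8 had further probes at 1.90 and 2.12. Luzp1, a leucine zipper protein, rose by 2.34 (adjusted p = 0.00395), with 2.54 at a further probe and -0.32 at another. Tmem151b and Ubtd1 rose by 2.03 and 1.79 (adjusted p = 0.0156 and 0.00395). For Tmem151b the genotypes overlapped, and its WT array of MI 1 week, at -7.94, was not well above background. Its difference ranged from 0.71 to 2.26 over the alternatives. Glo1, the glyoxalase that clears methylglyoxal and a gene named after its values were seen, rose by 1.75 (adjusted p = 0.0161) and lies 2 tested genes from Dnah8 on chromosome 17. Against the same WT arrays the STAT6-KO difference was 2.17 for Dnah8, 2.42 for Luzp1, and 1.91 for Ubtd1. It was 1.43 for Dsp, 1.46 for Glo1, and 1.35 for Tmem151b, and 0.33 to 2.28 for the other genes of this paragraph.

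The genes that fell included enzymes, a vitamin transporter, and ubiquitin pathway genes. Rbbp9, a serine hydrolase, read -1.19, -1.44, -1.54, and -1.69 in the WT arrays (control, then 1, 2, and 4 weeks after MI) and -4.44, -4.68, -4.51, and -4.85 in the HDC-KO arrays. Within each genotype the arrays lay close together, far closer than the gap between the genotypes, and the difference of -3.15 ± 0.13 had the smallest adjusted p of the comparison (limma, 0.000591). Its other probe, in contrast, was higher in HDC-KO in all 4 pairs, by 0.33. Gm10421 read -2.83, -1.18, -2.74, and -3.63 in WT and -6.79, -7.06, -7.50, and -7.07 in HDC-KO. No HDC-KO array was well above background, so in the scaling used here its signal was at least 18.2-fold lower, by the bound that the dimmest measured spots set. The adjusted p of 0.0293 (limma) is that of the fitted difference of -4.51, which rests on HDC-KO values not well above background. That difference ranged from -4.87 to -2.16 over the alternatives. Dtd1, which removes D-amino acids from transfer RNA, fell by 2.43 (adjusted p = 0.00467). Klhl25, an adaptor of a ubiquitin ligase, fell by 2.01 (adjusted p = 0.00194), while its other probe read 0.68 higher. Arl2bp, a partner of the GTPase ARL2, fell by 2.44 (adjusted p = 0.0218), with -0.73 at its other probe. Slc52a3, a riboflavin transporter, fell by 1.90 (adjusted p = 0.0324), and Jmjd7, a hydroxylase, by 2.08 (adjusted p = 0.0316). C130026I21Rik fell by 2.48, E030030I06Rik by 1.63, Enox1 by 1.61, and Spaca9 by 1.34 (adjusted p = 0.0342, 0.0121, 0.0458, and 0.0161). Further probes of E030030I06Rik differed by only -0.19 and -0.26, well above background on all 8 arrays, and by -1.84, on 2 of 8. The other probes of C130026I21Rik and Spaca9 differed by -1.47 and -1.32. Enox1 was well above background on 1 of 4 HDC-KO arrays. The STAT6-KO bone marrow differences from the same WT arrays were -3.34 for Gm10421, -2.06 for C130026I21Rik, and -1.17 for Spaca9. They lay between -0.90 and 0.98 for the other genes of this paragraph. Of the 56 called genes 21 had several probes, and 24 of their 28 other probes had the sign of the probe used, 12 of them with a difference of at least 0.5.

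**Figure D3:**
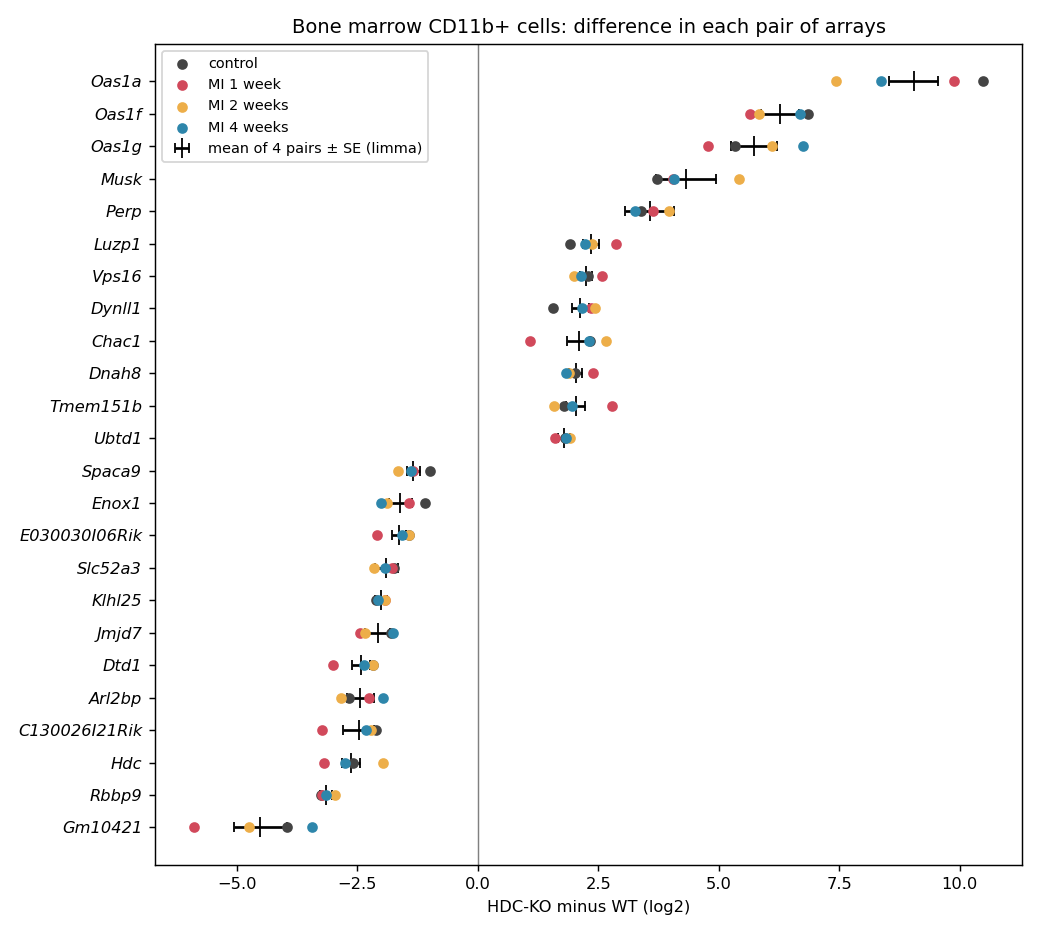
Difference of HDC-KO minus WT (x axis, log2) in each of the 4 pairs of arrays (coloured points) for the 12 top genes in each direction by the naming rule, with the mean and its SE from limma (vertical tick and bar). The naming rule asked for the same sign in all 4 pairs, so the points of a gene lie on 1 side of 0 by selection. The means run from 9.04 for Oas1a to -4.51 for Gm10421.

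Genes called on chromosome 2, where Hdc lies, made up 13 of the 56, or 23.2%, while the chromosome held 8.44% of the genes tested. The share called was 0.899% of 1446 tested genes on chromosome 2 and 0.274% of 15683 on the other autosomes. Hdc, the targeted gene, is 1 of the 13, and without it 12 of 1445 genes were called (0.830%). Of the 13, 5 rose and 8 fell. Of the 50 tested genes before Hdc 0 were called, and of the 50 after it 1 was, Usp8, 2 tested genes after Hdc. Usp8, a deubiquitinase of endosomal receptors, read 1.56, 1.67, 1.63, and 2.35 in the WT arrays (control, then 1, 2, and 4 weeks after MI) and 0.01, 0.51, 0.49, and 0.89 in the HDC-KO arrays. The genotypes did not overlap, and the difference was -1.33 ± 0.14 (limma, adjusted p = 0.0191). In spleen the mean pair difference of Usp8 was -0.19. In order along the chromosome the called genes were Spaca9, Chac1, Jmjd7, Hdc, Usp8, Vps16, Itpa, Prnp, Rbbp9, Dtd1, Crnkl1, Slc52a3, and Id1. In the same order, their STAT6-KO bone marrow differences from the same WT arrays were -1.17, 0.42, -0.90, -0.08, 0.78, and 0.56 up to Vps16. From Itpa on they were 0.37, 1.11, 0.16, -0.18, 0.30, -0.17, and 1.06. Rbbp9 and Dtd1 stood 3 tested genes apart and Dtd1 and Crnkl1 5, and all 3 fell. Itpa, Prnp, Crnkl1, and Id1 were named after their values were seen. Itpa, which clears inosine triphosphate, rose by 1.36 (adjusted p = 0.0219), and the prion protein gene Prnp rose 2.83-fold (adjusted p = 0.0494). Crnkl1, a splicing factor, fell by 1.13 (adjusted p = 0.0342). Id1, an inhibitor of helix-loop-helix factors, rose by 0.95 (adjusted p = 0.0376).

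**Figure D4:**
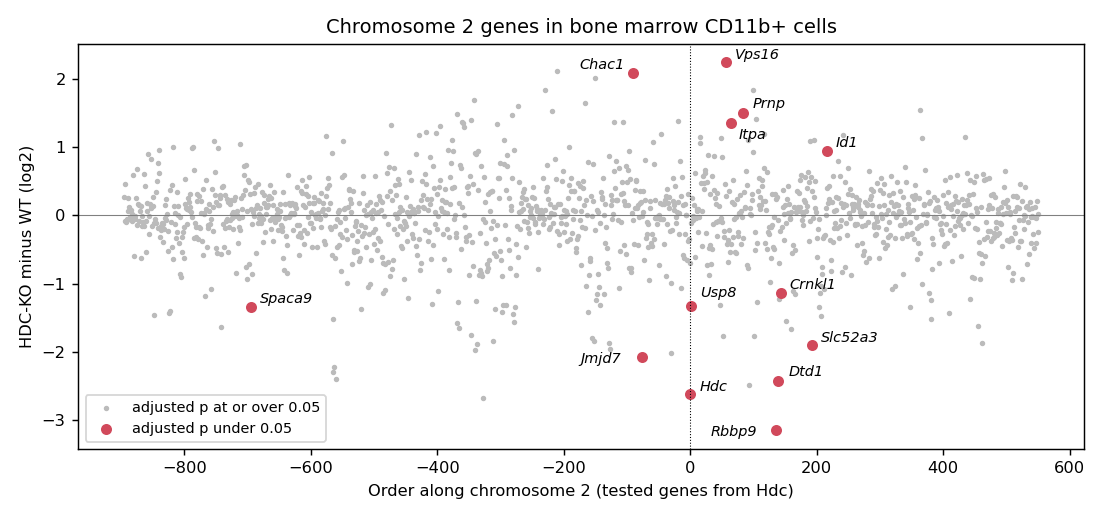
Difference of HDC-KO minus WT (y axis, log2) for the 1446 tested genes of chromosome 2 in their order along the chromosome, counted in tested genes from Hdc (x axis, dotted line at Hdc). Red points are the 13 genes past the threshold; 1 of them, Usp8, lies within 50 tested genes of Hdc.

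Gp9 and Gp1ba rose, and both calls were lost whichever time point was left out. They encode subunits of the receptor by which platelets bind von Willebrand factor. Gp9 read 0.12, -1.33, -0.07, and 0.18 in the WT arrays (control, then 1, 2, and 4 weeks after MI) and 1.58, -0.34, 0.59, and 1.37 in the HDC-KO arrays. It was lowest in both genotypes at MI 1 week, the genotypes overlapped, and within each pair HDC-KO was the higher one. The difference was 1.08 ± 0.16 (limma, adjusted p = 0.0484). Gp1ba, named after its values were seen, read 0.04, -1.41, -0.29, and -0.14 in WT and 1.37, -0.57, 0.53, and 1.24 in HDC-KO (difference 1.09 ± 0.14, adjusted p = 0.0356), and its genotypes overlapped too. Over the 8 tested genes of the megakaryocyte and platelet list, 1 rose (Gp9) and 7 differences lay above 0, with a median of 0.72 and pair medians of 1.19, 0.34, 0.55, and 0.74. The summed linear signal of the list, relative to the 75th percentile, lay between 9.52 and 24.4 in WT and between 11.3 and 44.9 in HDC-KO. In bulk RNA a larger number of cells of a type and more RNA per cell cannot be told apart. The promoters of both genes are shown because each held GATAAG, the motif of the GATA factors that drive megakaryocyte genes, in capitals (CTTATC on the other strand). The windows are chr6:87777950-87778099, strand + and chr11:70639002-70639151, strand + (RefSeq, GRCm38.p6), from 120 bases before to 30 after the start.
Gp9: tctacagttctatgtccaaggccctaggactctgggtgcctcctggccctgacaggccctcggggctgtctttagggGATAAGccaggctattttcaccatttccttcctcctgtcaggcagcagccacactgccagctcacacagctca
Gp1ba: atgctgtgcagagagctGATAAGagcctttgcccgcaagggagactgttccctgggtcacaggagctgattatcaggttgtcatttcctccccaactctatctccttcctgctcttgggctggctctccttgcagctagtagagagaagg
The match lay 43 bases before the start in Gp9 and 103 bases before it in Gp1ba, and the motif was found in 1197 of 32851 windows (3.64%). Both promoters were shown because they held the motif, so this share is no test of the match. Promoters of the other genes of the list were not examined one by one.

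Neutrophil and monocyte genes gave 0 calls. None of the 6 primary granule genes, the proteases and peroxidase of promyelocytes, passed the threshold, but all 6 differences lay above 0, with a median of 0.54. Mpo, myeloperoxidase, read 5.41, 4.57, 5.00, and 5.43 in WT and 5.76, 5.91, 5.46, and 5.45 in HDC-KO (difference 0.54, adjusted p = 0.213), and neutrophil elastase, Elane, differed by 0.67 (adjusted p = 0.136). The pair medians were 0.31, 1.30, 0.41, and 0.17, and the median was 0.26 without the MI 1 week pair. In the 8 secondary granule genes, made by later neutrophil precursors, the median was 0.05, with Lcn2 at 0.17 (adjusted p = 0.626) and Chil3 at 0.35 (adjusted p = 0.354). In the 11 genes of mature neutrophils the median was -0.10, with S100a9 at -0.13 (adjusted p = 0.731). The 14 monocyte and macrophage genes had a median of -0.09, and Csf1r, the receptor of the monocyte growth factor, read 5.21, 5.34, 4.66, and 5.41 in WT and 5.26, 4.89, 4.94, and 5.27 in HDC-KO. The genes of antigen presentation and dendritic cells stood lower, with 9 of 10 differences below 0, a median of -0.67 (-0.42 without the MI 1 week pair), and 0 called. Among them H2-Ab1, a chain of the class II molecule, was lower in all 4 pairs (-0.49, adjusted p = 0.276), as was Siglech of plasmacytoid dendritic cells (-0.73, adjusted p = 0.143). Eosinophil genes lay above 0 in 6 of 7 cases, with a median of 0.38, and Prg2, the granule major basic protein, was higher in all 4 pairs by 1.12 (adjusted p = 0.111). Basophil and mast cell genes had a median of 0.45 over 10 genes, which was 0.22 without the MI 1 week pair and 0.08 with normexp background correction, where 5 of 10 lay above 0, with the basophil protease Mcpt8 at 0.31 (adjusted p = 0.446).

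Markers of other cells that a CD11b+ preparation can hold varied more. All 12 B cell genes lay above 0 in HDC-KO, with a median of 1.14, and 0 passed the threshold. Their pair medians were 1.02, 2.15, 0.51, and 0.66, the highest in the MI 1 week pair, and the median was 0.74 without it. Vpreb3, part of the pre-B cell receptor complex, read 2.36, -2.30, 2.44, and 2.89 in WT and 3.36, 0.64, 2.60, and 3.35 in HDC-KO, higher in all 4 pairs (1.14, adjusted p = 0.232). The summed signal of the B cell list lay between 2.21 and 28.6 in WT and between 9.61 and 49.4 in HDC-KO, and no gene of the list was below background on all 8 arrays. Of the 14 erythroid genes 12 lay above 0 and 0 were called, with a median of 0.62. The pair medians were -0.38, 1.82, 0.31, and 0.86, and the median was 0.24 without the MI 1 week pair and 1.05 without the control pair. Their summed signal lay between 11.1 and 74.3 in WT and between 28.6 and 56.2 in HDC-KO. Of the T cell genes 1 of 10 rose, Cd8a, with a list median of 0.01. Cd8a, a coreceptor of cytotoxic T cells that some dendritic cells also carry, read -5.10, -5.19, -5.15, and -5.28 in WT and -4.46, -4.45, -4.41, and -4.45 in HDC-KO. The genotypes did not overlap (difference 0.74 ± 0.10, limma, adjusted p = 0.0454). The call was lost in 11 of 17 alternatives, and with normexp the difference was 0.06 (adjusted p = 0.880). Plasma cell genes lay above 0 in 6 of 7 cases (median 0.43, and 0.28 with normexp), natural killer and cytotoxic genes in 3 of 8 (median -0.15), and stromal and endothelial genes in 4 of 13 (median -0.16), with 0 called in each. Without the MI 4 weeks pair the stromal and endothelial median was 0.21, with 11 of 13 above 0. The part of these cells in the differences described above was not tested.

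All 24 genes of the cell cycle and of DNA replication lay above 0 in HDC-KO, with a median of 0.52 and 0 past the threshold. Pcna, the sliding clamp of the replication fork, read 4.05, 3.92, 3.88, and 3.70 in WT and 4.35, 4.65, 4.23, and 4.13 in HDC-KO (0.45, adjusted p = 0.139), and Mki67, a marker of dividing cells, differed by 0.33 (adjusted p = 0.306). The pair medians were 0.13, 0.99, 0.26, and 0.49, and the median without the MI 1 week pair was 0.33. The immediate early genes, which answer to stimulation and to handling of the cells within minutes, lay below 0 in 12 of 14 cases, with a median of -0.38 and 0 called. Fos and Dusp1 differed by -0.05 (adjusted p = 0.874) and 0.28 (adjusted p = 0.532). Stat6, the transcription factor of interleukin signalling that the study followed, read 2.78, 3.70, 2.91, and 3.21 in WT and 2.65, 2.81, 2.99, and 3.05 in HDC-KO (-0.28, adjusted p = 0.387). The macrophage lectin Mgl2 was lower in all 4 pairs (-0.70, adjusted p = 0.135), and 0 of the 11 tested type 2 genes passed the threshold (median -0.28, and -0.09 without the MI 1 week pair). The clock genes Per1 and Cry2 were higher in all 4 pairs (1.09 and 0.55, adjusted p = 0.144 and 0.139), with a median of 0.18 over 12 clock genes. Inflammatory cytokines (median -0.07, 14 genes) and chemokines (median -0.31, and -0.01 without the MI 1 week pair, 13 genes), with Il1b at -0.09 (adjusted p = 0.830) and Ccl6 at 0.07 (adjusted p = 0.871), gave 0 calls. So did the chemokine receptors, Toll-like receptors, myeloid transcription factors, heat shock, glycolysis, cholesterol synthesis, oxidative phosphorylation, and oxidative stress genes, whose medians lay between -0.22 and 0.13. Over the 32 lists, 347 of 360 genes were tested, 4 rose and 1 fell (1.44%, against 0.327% of all autosomal genes tested), and 89 had an unadjusted p under 0.05 (25.6%, against 20.3%). The lists hold Hdc, the targeted gene, and were chosen with earlier results of these data known. Their shares therefore cannot be read as an excess over all genes.

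**Figure D5:**
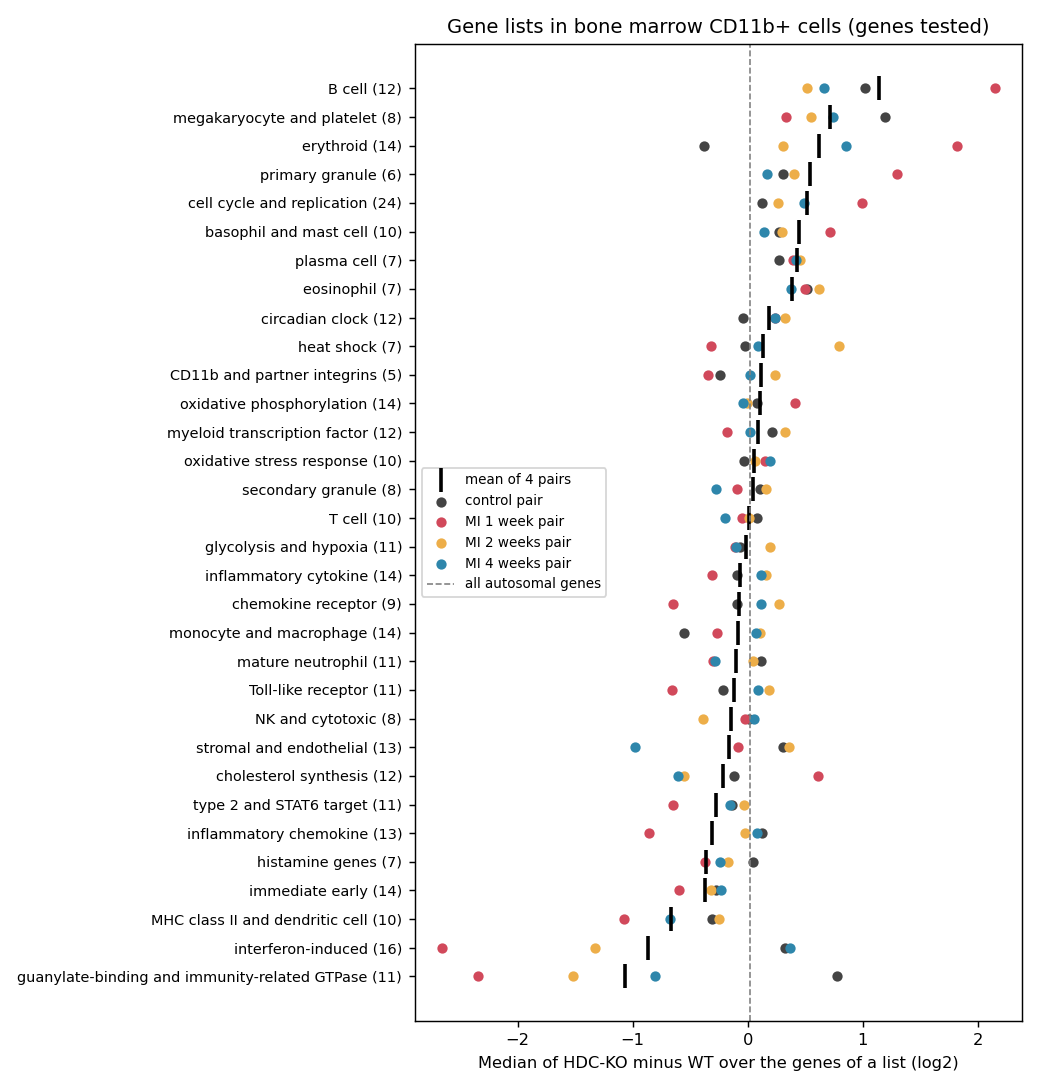
Median difference of HDC-KO minus WT (x axis, log2) over the tested genes of each of the 32 lists (rows, number of genes in parentheses). The black tick is the median of the mean differences, coloured points are the medians of the 4 pairs, and the dashed line is the median of all autosomal genes; the B cell list stands highest at 1.14 and the guanylate-binding list lowest at -1.07, and the MI 1 week pair lies outermost in both.

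The difference between genotypes was then compared between the control pair and the 3 pairs after MI. By limma 0 of 17116 autosomal genes passed the threshold (0%), and 584 had an unadjusted p under 0.05, of which 1 was among the 56 called genes. The 56 were called because these same pairs agreed, so a low count among them can follow from the selection. Only 1 control pair entered the comparison of MI with control, and it was assumed to vary like the others. The count of 0 therefore does not show that the difference was alike in control mice and after MI. For Hdc the difference after MI minus that in control was -0.05, and for Oas1a it was -1.92 (unadjusted p = 0.132, limma).

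Spleen served to show where the bone marrow differed. Of the 56 genes called in bone marrow, 47 had the same sign as the mean of the 3 spleen pairs after MI, and 38 had it in all 3. No such count over all genes tested is given here, so these sign counts alone do not show a shared effect. Of the 56, 30 passed the threshold in spleen, which is 53.6% of the bone marrow calls and 5.64% of the 532 autosomal spleen calls (3.05% of 17459 genes tested). The effect itself differed between the tissues for 139 of 17459 genes (0.796%, limma interaction), 68 with the bone marrow effect higher and 71 with it lower, and 3472 had an unadjusted p under 0.05. Of the 56 genes, 11 were among the 139. Gp1ba, which rose in bone marrow, had a spleen pair mean of -0.20 (adjusted p of the difference = 0.0327). Luzp1 rose more in bone marrow than in spleen, by 1.27 (adjusted p = 0.0374), and Dtd1 fell further, with a difference of -1.52 (adjusted p = 0.0315). Dsp had a spleen pair mean of -0.26 and Oas1a one of 9.69. List medians in spleen were -0.74 for the cell cycle, -0.73 for primary granules, 0.45 for B cells, -1.26 for interferon-induced genes, and -1.42 for the guanylate-binding list, and their differences from bone marrow were not tested as lists. The count of 139 was 802 without the control arrays, 2 without those of MI 1 week, and 0 without those of MI 2 weeks or MI 4 weeks.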

How the data were processed

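RNA of CD11b+ cells was hybridised by the authors to one-colour Agilent 4x44K arrays and read with Feature Extraction 11.0.1.1, per the file headers. The deposited values are spot intensity on a linear scale (gProcessedSignal), background-subtracted and not normalized between arrays. The submitters' processing notes name GCRMA, and its role is not given in the sources used here. Here control and outlier spots were left out, signals were taken to log2, each array's 75th percentile was subtracted, and spots of a probe were averaged. A gene took its brightest probe over 22 arrays, and probes well above background on fewer than 2 of the arrays of a fit were left out. Names came from RefSeq accessions (20659 genes). Arrays with 229 (control spleen of HDC-KO) and 84 (MI 1 week bone marrow of STAT6-KO) of 44397 spots were left out.

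The fit was limma 3.58.1 in R 4.3.3 (data.table package, version 1.17.8) on the 11 full bone marrow arrays, STAT6-KO included for the estimate of spread, with additive terms for time point and genotype and Benjamini-Hochberg adjustment over 27090 genes and transcripts. The difference between tissues used 22 arrays. Arrays of a time point deviated together (correlations of 0.383, 0.388, 0.115, and 0.409 for control, MI 1, 2, and 4 weeks), so time points were kept as pairs. Genes named were Hdc, the top 12 rises and 12 falls past the threshold with the same sign in 4 pairs and measured on all arrays of the higher genotype, called genes within 50 tested genes of Hdc, up to 4 called or the 2 brightest genes of each list, and the 5 largest tissue differences each way. Genes and the 32 lists were chosen with earlier results of these data known. Fits were tested on simulated data. Plots used matplotlib 3.10.9 in Python 3.11.15. Alternatives were normexp (offset 50, on the median spot signal), quantile and median scaling, other filters and probe rules, a floor on dim signals, an intensity trend, fewer arrays, no block, and the methods' t-test.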

Additional observations from a re-analysis of the deposited data

Results flagged for a closer look

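The effect of HDC-KO differed between bone marrow and spleen in 139 autosomal genes by the limma interaction. Among genes named by the fitted size, the bone marrow effect was higher in Olfr394 (4.03, adjusted p = 0.0315), Vmn1r179 (3.84, adjusted p = 0.0411), Npas1 (3.39, adjusted p = 0.0466), Hand1 (3.25, adjusted p = 0.0443), and Tmprss11g (3.04, adjusted p = 0.0488). It was lower in Vmn1r228 (-3.82, adjusted p = 0.00988), Sh3gl2 (-3.41, adjusted p = 0.0382), Olfr688 (-3.22, adjusted p = 0.0243), Tafa1 (-3.20, adjusted p = 0.0453), and Vmn1r202 (-3.16, adjusted p = 0.0452). Olfr394 and Olfr688 encode olfactory receptors, Vmn1r179, Vmn1r202, and Vmn1r228 vomeronasal receptors, Hand1 a transcription factor of heart and placenta, and Sh3gl2 a protein of synaptic vesicles. Most of these probes were dim, so their fitted differences are no measured folds and have no order. Npas1 and Tmprss11g were well above background on all 8 bone marrow arrays, and Tafa1 on 0 of them. Of 4 WT and 4 HDC-KO arrays, the others were well above background on 1 and 3 for Olfr394, 1 and 3 for Vmn1r179, 1 and 4 for Hand1, 3 and 0 for Vmn1r228, 2 and 1 for Sh3gl2, 2 and 0 for Olfr688, and 3 and 1 for Vmn1r202.

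Genes outside the autosomes passed the threshold in bone marrow as well. Xist rose by 3.07, and Ctps2, a CTP synthase of the X chromosome, by 3.15. 4930550L24Rik and Fndc3c1 were well above background on 0 of 4 WT arrays, and on 4 and 2 of 4 HDC-KO arrays. Their fitted differences were 1.49 and 1.68, and 4930550L24Rik exceeded its WT bound at least 1.73-fold. The Y-linked genes Ddx3y and Uty had differences of -1.21 and -1.26. The difference of Ctps2 was 3.22 in STAT6-KO bone marrow, against the same WT arrays, and 3.07 in spleen. A further 58 called genes and transcripts had no chromosome in the reference and are not described.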

How the results depend on the processing

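The count of 56 autosomal genes was 29 with normexp, 89 with an intensity trend, 15 on the 8 arrays of WT and HDC-KO alone, 527 by the methods' t-test (183 higher, 344 lower) and 17 by it after Benjamini-Hochberg, and between 2 and 219 with 1 time point left out (42 higher and 177 lower without the control arrays). On those 8 arrays without the replicate block, that is without the pairing by time point, it was 28, and Hdc gave -2.63 (adjusted p = 0.00192, limma). Hdc was no longer past the threshold on the 8 arrays alone (-2.63, adjusted p = 0.0555, limma), and its difference ranged from -2.85 to -2.44 with 1 time point left out. The count of 139 for the difference between tissues was 0 with normexp (1028 at an unadjusted p under 0.05, limma), 64 with the filter on every array, 78 with no filter, 75 with an intensity trend, 274 on 14 arrays, 276 with bone marrow and spleen paired, and between 0 and 802 with 1 time point left out. Its split moved with the scaling, from 68 higher and 71 lower to 99 and 32 with quantile normalization, 105 and 44 with the median, and 65 and 119 with the probes detected on all arrays. The difference between MI and control gave 0 genes under 15 alternatives, with 269 to 1705 at an unadjusted p under 0.05 (limma), which with 1 control pair says nothing about stability. The causes of these shifts were not tested.

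Over 46 named genes and 765 alternatives, the call held in 527, was lost in 238, and reversed in 0. The genes named for the bone marrow comparison had the same sign in every pair. Leaving out a time point or the STAT6-KO arrays therefore could not reverse them. For these settings the count of 0 was fixed in advance and is no sign of stability. Of the 56 called genes, 55 kept their sign with normexp and 29 stayed called. List medians of T cells, secondary granules, monocytes, integrins, and other lists near 0 changed sign in some setting, while those of the B cell, megakaryocyte, erythroid, primary granule, cell cycle, guanylate-binding, interferon-induced, class II, and immediate early lists did not. These list settings and those for 10 of the genes named later were chosen after seeing the data. With 1 array per condition the number of arrays limits the precision, and dim probes have only bounds.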
